A study of Mus musculus with 6 samples.

Results

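The glutathione transferases described here are 10 mouse genes, Gsta4, Gstm1, Gstm2, Gstm5, Gsto1, Gstp1, Gstt1, Mgst1, Mgst2 and Mgst3. They were taken as a list by symbol, matched to Entrez identifiers through RefSeq, and all 10 were found among the 36528 genes of the deposited tables. RNA was measured by sequencing in cells sorted from mouse skin, stem cells of the hair follicle bulge gated as CD49f+, CD34+ and GFP-. Mice of both groups were Lgr5-DTReGFP, in which the receptor for diphtheria toxin (DT) and eGFP are made by cells that use the Lgr5 promoter. Of the 6 libraries, 3 came from mice given saline (labelled NaCl) and 3 from mice given DT. The sources used here do not give the sex, age or strain background of the mice, the dose, the interval to collection or the number of animals behind a library, and a group given DT without the receptor was not analysed here. Since no label states that the libraries of a group stem from different animals, the p-values speak only to the variation among these libraries, which could be technical.

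Glutathione transferases join the thiol of glutathione to reactive, often fat-soluble molecules, which makes them easier to export from the cell. Cytosolic enzymes are sorted into classes named by Greek letters (alpha for Gsta, mu for Gstm, omega for Gsto, pi for Gstp and theta for Gstt), and a separate, membrane-bound family holds Mgst1, Mgst2 and Mgst3. In skin they handle products of lipid peroxidation and foreign chemicals, and several are known targets of the transcription factor NRF2.

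Counts per library came to between 15300755 and 25558859 reads in genes. Of the genes behind the gate, Cd34 was at 2804 ± 355 CPM (read count relative to the TMM-scaled library total, mean ± SD, n = 3) in saline and 2348 ± 403 CPM in DT, and Itga6, which encodes CD49f, at 122 ± 20.5 and 98.8 ± 10.5 CPM, and neither passed the test. Among 9 bulge stem cell markers, these 2 included, 3 fell, 1 rose and 5 did not pass. Lhx2, Sox9 and Nfatc1, transcription factors of the bulge, fell (log2 fold change -1.09, -0.71 and -0.69, edgeR adjusted p = 0.00696, 0.0342 and 0.0165), and the basal keratin gene Krt14 rose from 2573 ± 331 to 8816 ± 514 CPM (1.78, adjusted p = 5.16e-05). The bulge keratin gene Krt15 was at 34813 ± 6583 and 33362 ± 9506 CPM and did not pass. The part of these marker differences in those of the transferases was not tested. Lgr5, where the receptor sits, fell from 24.0 ± 7.20 to 7.11 ± 0.143 CPM (log2 fold change -1.76, edgeR adjusted p = 0.000864). In bulk samples like these, fewer cells of a type and less RNA per cell cannot be told apart. In a principal component analysis, the first component (69.9% of the variance) separated the groups, and on the second (12.4%) saline library 1 stood apart at 41.32, with saline libraries 2 and 3 at -18.45 and -26.79.

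The upstream sequences of Gstm1 and Gstt1, the members that fell in DT, are shown with those of Gstm2 and Gstm5, which share a gene cluster with Gstm1 and did not pass the test. Each is the stretch of 250 bases just before a RefSeq start site in GRCm38.p6, written 5′ to 3′ on the strand of the gene. Capitals mark matches, on either strand, to the antioxidant response element TGACNNNGC, to the core of the xenobiotic response element GCGTG, or to the AP-1 site TGANTCA. RefSeq gives Gstm1 a pair of start windows, and the one farther upstream is shown. The Gstt1 window lies inside the annotated span of the gene, before the start of a transcript that begins inside it.
Gstm1, chr3:108017974-108018223, minus strand: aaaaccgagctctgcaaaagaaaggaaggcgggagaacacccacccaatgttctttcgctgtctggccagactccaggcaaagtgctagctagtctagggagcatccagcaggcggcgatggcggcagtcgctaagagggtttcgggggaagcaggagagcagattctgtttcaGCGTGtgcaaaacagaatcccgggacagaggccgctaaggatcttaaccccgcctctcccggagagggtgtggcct
Gstm2, chr3:107986421-107986670, minus strand: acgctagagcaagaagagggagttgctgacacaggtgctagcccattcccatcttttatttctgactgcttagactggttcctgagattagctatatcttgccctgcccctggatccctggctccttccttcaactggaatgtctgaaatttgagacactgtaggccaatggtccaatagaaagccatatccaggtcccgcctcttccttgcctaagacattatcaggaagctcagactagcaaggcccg
Gstm5, chr3:107895604-107895853, plus strand: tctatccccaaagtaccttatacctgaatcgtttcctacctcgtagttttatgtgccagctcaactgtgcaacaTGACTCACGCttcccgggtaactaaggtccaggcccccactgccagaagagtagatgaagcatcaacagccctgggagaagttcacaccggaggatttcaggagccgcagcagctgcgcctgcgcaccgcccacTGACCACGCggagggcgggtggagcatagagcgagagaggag
Gstt1, chr10:75797732-75797981, minus strand: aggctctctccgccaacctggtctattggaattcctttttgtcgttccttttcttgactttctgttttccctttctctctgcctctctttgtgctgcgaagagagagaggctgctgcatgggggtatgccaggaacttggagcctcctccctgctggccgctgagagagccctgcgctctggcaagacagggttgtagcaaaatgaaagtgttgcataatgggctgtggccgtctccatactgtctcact

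Of the 10 members, 9 had such windows, 11 in all (no entry was matched for Gsta4). Gstm1 and Mgst1 have more than a single window, and a match in any window counts for the member. The background shares are per window, so the units differ. The antioxidant element matched upstream of 2 of the 9, Gstm5 and Mgst1, where 10.2% of all 32851 windows held it. In Mgst1 only the window farther upstream matched. The xenobiotic core matched upstream of 4, Gstm1, Gstm5, Gstp1 and Mgst3, against 28.2% of all windows. The AP-1 site matched upstream of 3, Gstm5, Gstp1 and Mgst2, against 6.75%. The Mgst2 window, chromosome 3 from 51660929 to 51661178, lies inside the annotated span of the gene, before a start site within it. In Gstm5 the antioxidant match and the AP-1 match each overlap a match of the xenobiotic core read on the other strand. In the windows printed for Gstm2 and Gstt1 none of the 3 motifs was found. These are matches of letters and no evidence of binding.

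Per unit of gene length, Gstm5 was the most abundant member in these cells and the alpha-class gene Gsta4 and the membrane-bound Mgst2 were barely present. In saline, Gstm5 stood at 293 to 386 RPKM (reads per length of the gene model and per library depth, adjusted by the authors with a size factor), above Gstm1 at 138 to 163, Gstp1 at 117 to 133, Gstm2 at 100.4 to 110 and Mgst3 at 88.8 to 107 RPKM. Mgst1 at 58.8 to 78.5 RPKM and Gsto1 at 63.8 to 68.4 RPKM followed, then Gstt1 at 11.0 to 13.4, Mgst2 at 1.22 to 2.70 and Gsta4 at 0.512 to 1.63 RPKM. Within this order the ranges overlapped for Gstm2 and Mgst3, for Mgst1 and Gsto1, and for Mgst2 and Gsta4, so these neighbours were not separated by their spread. In DT, Gstm5 was again first, at 279 to 290 RPKM, and Mgst3 was second, at 127 to 134 RPKM. Gstm1, which ranked 2 in saline, ranked 5 by mean in DT at 57.0 to 86.8 RPKM, in a range that overlapped those of Gstp1, Gstm2, Gsto1 and Mgst1, so its rank among these is not settled. These levels rest on uniquely aligned reads only. Of the 50-base stretches in annotated transcripts, 66.3% for Gstp1, 81.1% for Gstm1 and 94.3% for Gstm2 occur in no other gene. The levels were not adjusted for this, so Gstp1 may be understated more than the others. Its place below Gstm1 in saline and below Mgst3 in DT is therefore not settled. The levels are plotted by library.

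**Figure D1:**
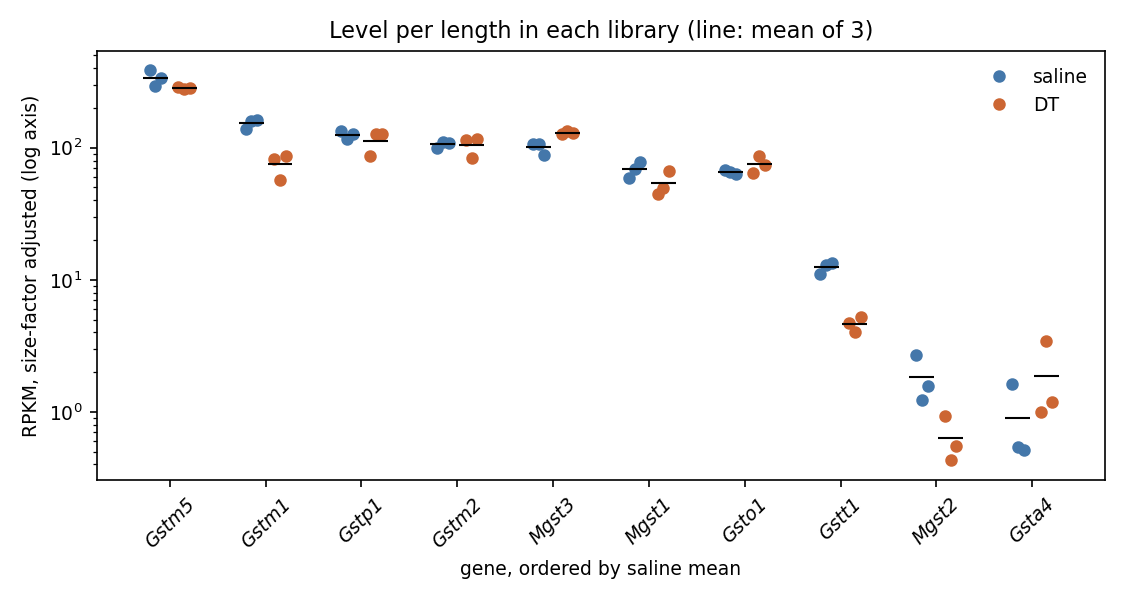
Level per length (size-factor-adjusted RPKM, log axis) of each of the 10 transferase genes in the 3 saline (blue) and 3 DT (orange) libraries, with lines at group means. Gstm5 lies highest in both groups, and the points of Gstm1 and Gstt1 fall into separate ranges for saline and DT.

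Summed over the 10 members, the level was 1007, 936 and 980.3 RPKM in saline libraries 1 to 3 and 816, 824 and 889 RPKM in DT libraries 1 to 3. Every DT library was below every saline library. Gstm5 supplied 34.6% ± 3.55 (SD, n = 3) of this sum in saline and 33.7% ± 1.88 in DT. The share of Gstm1 was 15.8% ± 1.84 in saline and 8.90% ± 1.72 in DT. That of Mgst3 was 10.3% ± 1.18 and 15.5% ± 0.862. These shares are a description and were not tested.

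The comparison of DT with saline asks how CD34-positive cells differ once cells that use the Lgr5 promoter have been targeted. Of the 10 transferases 2 fell in DT, Gstm1 and Gstt1, and 0 rose, and the other 8 did not pass the test (edgeR quasi-likelihood test, Benjamini-Hochberg adjusted over all 15132 genes tested). All 10 had enough reads to be tested. Of all genes tested 29.0% were called, 17.2% as higher and 11.9% as lower in DT. A count of 2 in 10 is not above the share called in either direction. It is above the 11.9% that fell, but rests on 2 genes and was not tested. The median log2 fold change of the members was -0.21, against -0.01 over all genes tested. The 3 DT libraries lay wholly apart from the 3 saline libraries for 4 members, 3 of them lower (Gstm1, Gstt1 and Mgst2) and 1 higher (Mgst3). Over all genes tested 45.9% had groups that did not overlap, 20.5% with DT lower and 25.4% with DT higher.

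**Figure D2:**
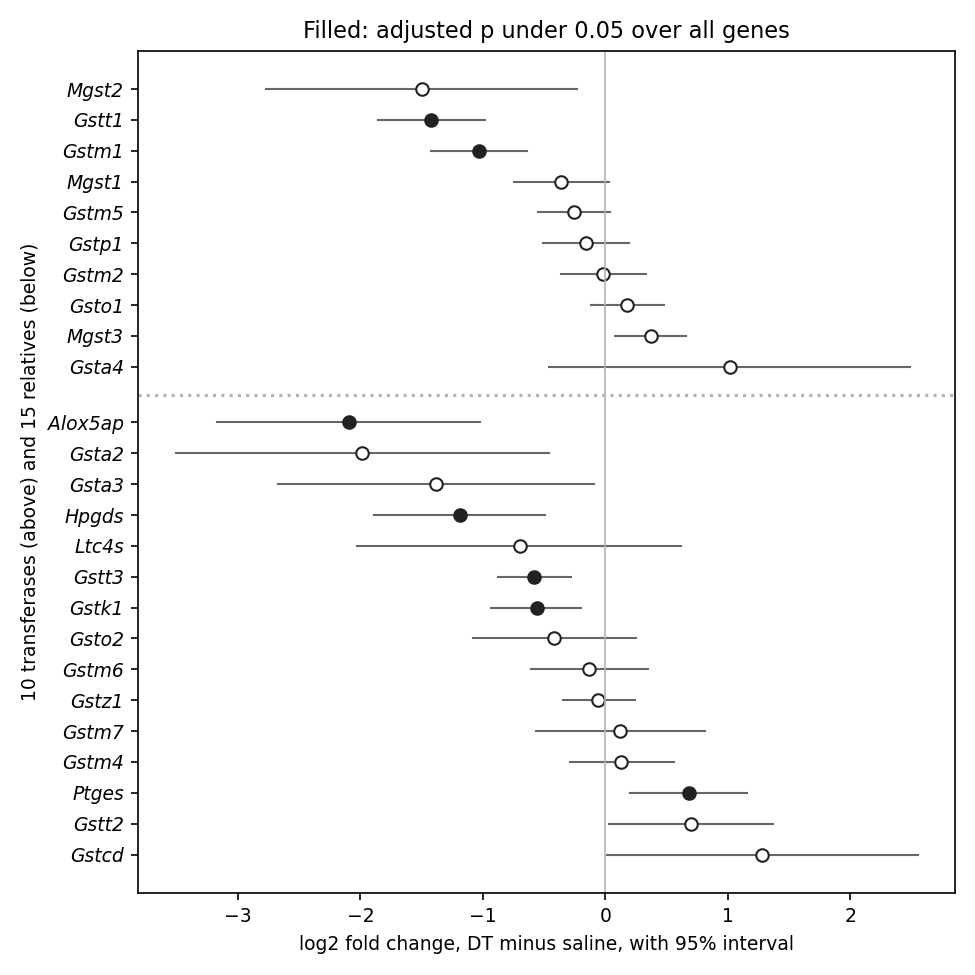
Log2 fold change (DT minus saline) with its 95% interval for the 10 transferases (above the dotted line) and 15 related genes that were tested (below), with filled points where the adjusted p over all genes was under 0.05. Gstm1 and Gstt1 are filled at -1.03 and -1.42, and of the relatives 4 are filled on the left and Ptges on the right.

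Gstt1 (Entrez 14871, chromosome 10 from 75783813 to 75798584 in GRCm38), a theta-class enzyme that acts on small halogenated compounds, was at 19.6, 23.1 and 23.8 CPM in saline libraries 1 to 3. In DT libraries 1 to 3 it was at 8.58, 7.05 and 9.18 CPM. All DT libraries were below all saline libraries, with a log2 fold change of -1.42 (SE 0.20, 95% interval -1.86 to -0.98, adjusted p = 0.000912), which leaves 37.4% of the saline level. The search for similar profiles covered 10095 other genes with a symbol and a mean of at least 5 CPM, without numbered predicted genes and clones. Mn1, Prss36 and Enpp5 had the profiles nearest to that of Gstt1 over the 6 libraries. Their Euclidean distances on log2 CPM relative to the saline mean were 0.119, 0.215 and 0.227, and their log2 fold changes were -1.35, -1.43 and -1.34.

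Gstm1 (Entrez 14862, chromosome 3 from 108012250 to 108017973), a mu-class enzyme of broad substrate range, was at 201, 234 and 237 CPM in the saline libraries and at 122, 81.6 and 126 CPM in the DT libraries. The groups did not overlap, and DT library 2 was lowest. Its log2 fold change was -1.03 (SE 0.17, 95% interval -1.42 to -0.64, adjusted p = 0.00241), or 49.0% of the saline level. Of the stretches of 50 bases in annotated Gstm1 transcripts, 81.1% occur in no transcript of another gene. The rest are shared mainly with a Gstm2 pseudogene and Gstm3, and since only uniquely aligned reads were counted, some Gstm1 reads may be missing from both groups. Gstm3 itself had 4 reads over the saline libraries and 1 over the DT libraries.

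The other mu-class genes of the cluster on chromosome 3 that could be tested did not pass. Gstm2 (Entrez 14863, from 107981702 to 107986420) was at 112, 123 and 120.1 CPM in saline and at 130.4, 91.6 and 128 CPM in DT. These ranges overlap, and the log2 fold change was -0.02 (SE 0.16, 95% interval -0.36 to 0.33, adjusted p = 0.941). Gstm5 (Entrez 14866, from 107895854 to 107898685) was at 375, 285 and 325 CPM in saline and at 287, 265 and 272 CPM in DT. Its ranges overlap by a single pair of libraries, and the log2 fold change was -0.26 (95% interval -0.55 to 0.04, adjusted p = 0.179). A long noncoding RNA, 4933431E20Rik, overlaps Gstm5 by 360 bases, and this RNA, unlike Gstm5, passed the test (log2 fold change -0.60, SE 0.14, adjusted p = 0.0122). Whether counting used strand is not given, so reads of that overlap cannot be assigned to either gene. Gstm4, Gstm6 and Gstm7 had log2 fold changes of 0.13, -0.13 and 0.12 (adjusted p = 0.633, 0.677 and 0.798).

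Inside each library, Gstm1 was set against its cluster mates, since such a ratio does not depend on how libraries are scaled. Gstm1 was at 1.37, 1.46 and 1.51 times the RPKM of Gstm2 in saline libraries 1 to 3 and at 0.713, 0.680 and 0.749 times in DT libraries 1 to 3. Thus Gstm1 was the higher of the pair in every saline library and the lower in every DT library. The mean log2 ratio was 0.53 ± 0.07 (SD, n = 3) and -0.49 ± 0.07, a difference of -1.02 (two-sided exact permutation test, p = 0.1, the smallest that 3 against 3 allows). Against Gstm5 the log2 ratio was -1.13 ± 0.32 in saline and -1.94 ± 0.31 in DT, a difference of -0.81 (exact permutation p = 0.1). With this design neither ratio can pass a threshold of 0.05.

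**Figure D3:**
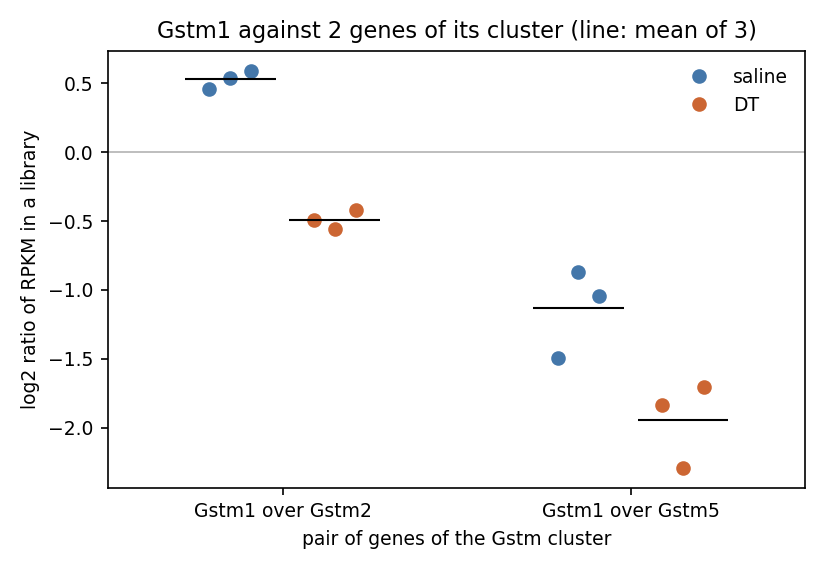
Log2 ratio of RPKM within each library, Gstm1 over Gstm2 (left) and Gstm1 over Gstm5 (right), for saline (blue) and DT (orange), with lines at the means of 3 libraries. The ratio to Gstm2 is above 0 in all saline libraries and below 0 in all DT libraries, and the ratio to Gstm5 is lower in every DT library than in any saline library.

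The pi-class and omega-class members did not pass. Gstp1 (Entrez 14870, chromosome 19 from 4035411 to 4037912), which also binds and restrains the stress kinase JNK, was at 105, 92.7 and 100 CPM in saline and at 70.1, 98.0 and 98.9 CPM in DT. DT library 1 alone lay below the saline range, and the log2 fold change was -0.16 (95% interval -0.51 to 0.19, adjusted p = 0.474). Only 66.3% of the 50-base stretches of Gstp1 transcripts occur in no other gene, the rest being shared with its neighbour Gstp2 and a pseudogene. As for Gstm1, some Gstp1 reads may therefore be missing from both groups. Gstp2 had 2 reads over the saline and 14 over the DT libraries. Gsto1 (Entrez 14873, chromosome 19 from 47854973 to 47864790), which removes glutathione from proteins and reduces oxidised ascorbate, was at 84.7, 81.6 and 78.7 CPM in saline and at 81.5, 104 and 91.7 CPM in DT. These ranges overlap as well (log2 fold change 0.18, 95% interval -0.12 to 0.48, adjusted p = 0.35).

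The alpha-class gene Gsta4 (Entrez 14860, chromosome 9 from 78191966 to 78209349), whose product detoxifies the lipid peroxidation product 4-hydroxynonenal, had only 40, 12 and 12 reads in the saline libraries and 22, 51 and 30 in the DT libraries. The groups overlap, and DT library 2 was highest. The log2 fold change was 1.02 (SE 0.66, 95% interval -0.46 to 2.49, adjusted p = 0.276), and it was 0.26 without DT library 2 and 1.76 without saline library 1. A change of this gene was not resolved at this depth. Its relatives Gsta2 and Gsta3, with 68 and 100 reads over the saline and 16 and 36 over the DT libraries, had log2 fold changes of -1.99 and -1.38 and did not pass (adjusted p = 0.0532 and 0.101), though both did with limma on log2(RPKM + 1) (0.018 and 0.0468). Gsta1 had 1 read in all 6 libraries.

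Of the membrane-bound members, Mgst1 (Entrez 56615, chromosome 6 from 138140527 to 138156755), a transferase and peroxidase of the endoplasmic reticulum and mitochondria, was at 77.3, 91.3 and 103 CPM in saline and at 59.9, 64.0 and 87.1 CPM in DT. DT library 3 lay inside the saline range and the other DT libraries below it (log2 fold change -0.36, 95% interval -0.75 to 0.03, adjusted p = 0.148). Mgst3 (Entrez 66447, chromosome 1 from 167371966 to 167393841), a microsomal enzyme with peroxidase activity, was at 72.2, 72.1 and 59.9 CPM in saline and at 87.4, 89.1 and 87.1 CPM in DT. Every DT library was above every saline library, yet the log2 fold change of 0.37 (SE 0.13, 95% interval 0.08 to 0.66) missed the threshold with an adjusted p of 0.0589. It passed with DESeq2 (adjusted p = 0.0439) and with limma on log2(RPKM + 1) (adjusted p = 0.0499). Mgst2 (Entrez 211666, chromosome 3 from 51636912 to 51682675), which can make leukotriene C4, had 52, 21 and 29 reads in saline and 16, 5 and 11 in DT. Its groups did not overlap, and the log2 fold change was -1.50 (SE 0.57, 95% interval -2.77 to -0.23, adjusted p = 0.0734). With limma on log2(RPKM + 1) it passed (adjusted p = 0.0279), with a log2 difference of -0.77.

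A further 20 genes of the transferase families were listed, of which 15 had enough reads to be tested; 4 of these fell, 1 rose and 10 did not pass (median log2 fold change -0.42). A count of 5 in 15 is close to the 29.0% called over all genes. The split differs, since 11.9% of all genes fell and 17.2% rose, while most of the relatives called fell. This split was not tested. Gstt3, which lies beside Gstt1, was at 106, 120.0 and 131 CPM in saline and at 82.3, 72.8 and 84.1 CPM in DT, with no overlap (log2 difference -0.58, SE 0.14, adjusted p = 0.0112). Gstt2 of the same cluster was low, at 3.68 ± 1.02 and 5.98 ± 0.730 CPM, and did not pass (0.70, adjusted p = 0.109). Gstk1, the kappa-class enzyme of mitochondria and peroxisomes, fell from 38.6 ± 1.18 to 26.1 ± 3.99 CPM (-0.56, adjusted p = 0.0285). Hpgds, a sigma-class transferase that makes prostaglandin D2, fell from 13.2 ± 4.96 to 5.75 ± 1.52 CPM (-1.19, adjusted p = 0.0192). Alox5ap, a non-enzymatic relative of the microsomal transferases that hands arachidonic acid to 5-lipoxygenase, fell from 6.70 ± 4.2 to 1.56 ± 0.476 CPM (-2.09, adjusted p = 0.0104). Ptges, another relative, which makes prostaglandin E2, rose from 21.5 ± 4.81 to 34.4 ± 6.82 CPM (0.68, SE 0.22, adjusted p = 0.0390). The call of Gstk1 was lost without saline library 2 (adjusted p = 0.0879), saline library 3 (0.0743) or DT library 2 (0.0848). Hpgds no longer passed without saline library 3 (0.0737) or DT library 2 (0.0636). The call of Ptges was lost with scaling by library size only (adjusted p = 0.0648), with limma on RPKM (0.0533), and when any of saline libraries 1 and 2 and DT libraries 2 and 3 was left out (0.0955 to 0.191). Without saline library 2, 3 of these relatives were called, and without DT library 2, 2 were. With limma on log2(RPKM + 1), 6 fell and 1 rose.

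Markers of some other cells also differed between the groups. For comparison, 11.9% of all genes tested fell and 17.2% rose. Among 11 immune markers with enough reads to test, of 12 listed, 6 had lower and 1 (Itgam) had higher levels past the test, and the summed level of the list was 216 to 297 CPM in saline and 138 to 171 CPM in DT. Both Hpgds and Alox5ap are also used by immune cells. Of 5 mast cell markers, 4 (Cpa3, Mcpt4, Tpsb2 and Fcer1a) had 0 reads in all libraries. The other, Cma1, had 0 reads in each saline library and 3, 2 and 4 in DT libraries 1 to 3, too few to test. Of 5 upper follicle markers, 3 fell and Klk10 rose, with a sum of 684 to 859.7 CPM in saline and 420.2 to 472 CPM in DT. Suprabasal epidermis markers fell in 3 of 7 cases (1282 to 1672 CPM and 1075 to 1256 CPM), and melanocyte markers in 2 of 3 tested (13.5 to 27.4 CPM and 7.92 to 10.5 CPM). Of 2 fibroblast markers tested 1 fell (23.5 to 41.3 CPM and 9.47 to 16.9 CPM), and Lum, also listed, had 0 reads. Of 5 sebaceous gland markers 1 fell (46.6 to 56.7 CPM and 32.2 to 49.8 CPM), and of 4 endothelial markers tested 0 passed (3.19 to 23.6 CPM and 8.02 to 11.9 CPM). Of 5 smooth muscle and pericyte markers, Acta2 was the 1 with enough reads to test and rose (summed level of the list 0.601 to 1.86 CPM and 23.3 to 102 CPM), and Rgs5 had 0 reads. The part of these cells in the differences of Gstm1, Gstt1 and their relatives was not tested.

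Of 19 tested genes for the reduction of glutathione, peroxides and thioredoxin, 8 rose, 0 fell and 11 did not pass (median log2 fold change 0.39), where 17.2% of all genes tested rose. Among the 11 was Gsr, the glutathione reductase itself, at -0.42 (adjusted p = 0.291). Gpx3, also among them, was at -2.06 and just missed the threshold (adjusted p = 0.0507). It passed with DESeq2 (0.0207) but not with limma-voom (0.079). Gpx2, a glutathione peroxidase of epithelia, rose from 4.97 ± 1.79 to 34.6 ± 3.77 CPM (2.80, adjusted p = 0.000113). Thioredoxin, encoded by Txn1, rose from 134 ± 10.3 to 258 ± 47.2 CPM (0.94, adjusted p = 0.00210). Idh1, a cytosolic source of NADPH, and Txnrd2, the mitochondrial thioredoxin reductase, rose by log2 0.54 and 0.95 (adjusted p = 0.0126 for both). The call of Txnrd2 was lost when any of saline library 2 and DT libraries 2 and 3 was left out (0.0539 to 0.0733). Glrx3 and G6pdx, also among the 8, passed narrowly (edgeR adjusted p = 0.0492 and 0.0497). Each of these 2 calls was lost under 12 of 15 alternatives. With DESeq2 size factors 7 rose and 1 fell, and with scaling by library size only 6 rose and 2 fell. The number that rose was 4 when any of saline libraries 2 and 3 and DT libraries 2 and 3 was left out, with 1 falling in the case of saline library 2.

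Genes that make, import or break down glutathione were mostly below the threshold. Of 17 tested, 3 rose and 0 fell (median 0.23), a share near the 17.2% that rose over all genes. These were Chac1 and Chac2, which cleave glutathione in the cytosol, at log2 fold changes of 0.98 and 0.64, and the peptidase Lap3 at 0.47 (adjusted p = 0.0314, 0.0282 and 0.0363). The call of Chac1 was lost whichever library was left out (0.0531 to 0.12), and those of Chac2 and Lap3 were lost under 5 and 6 of 15 alternatives (0.0519 to 0.131 and 0.0512 to 0.118). The number called was 1 without saline library 1 (a gene that fell), saline library 2 or DT library 2, and 0 without DT library 3. With scaling by library size only 1 rose and 2 fell, and with DESeq2 size factors 3 rose and 1 fell. The subunits of the enzyme that limits glutathione synthesis, Gclc and Gclm, did not pass, both at a log2 fold change of 0.35 (adjusted p = 0.207 and 0.287).

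Among 7 tested pumps that can export glutathione conjugates or other drugs, 3 rose and 1 fell (median -0.19), against 17.2% and 11.9% of all genes. Abcg2, a pump known from stem cells, rose from 24.3 ± 7.95 to 155 ± 23.0 CPM (2.67, adjusted p = 8.18e-05). Abcc3 rose from 1.61 ± 0.405 to 7.63 ± 1.26 CPM (2.24, adjusted p = 0.000939). Abcc1, the main exporter of glutathione conjugates, rose by log2 0.41 (adjusted p = 0.0457), a call that was lost under 11 of 15 alternatives. Abcc5 fell by 0.58 on the log2 scale (adjusted p = 0.0184), a call lost under 4 of 15 alternatives (0.0524 to 0.0739). When any of saline library 2 and DT libraries 2 and 3 was left out, 2 pumps were called, and with scaling by library size only 2 rose and 2 fell.

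Other enzymes of detoxification went both ways, 7 of 26 tested rising and 4 falling (median 0.15), against 17.2% and 11.9% of all genes. Ptgr1, which reduces reactive aldehydes and prostaglandins, rose from 55.1 ± 11.1 to 131 ± 12.0 CPM (1.25, adjusted p = 0.000685), and Hagh, the second enzyme of the glyoxalase pathway, from 82.3 ± 6.32 to 172 ± 31.7 CPM (1.06, adjusted p = 0.00128). Akr1b8, an aldo-keto reductase, and Ugdh, which supplies glucuronic acid, rose by log2 0.77 and 0.57 (adjusted p = 0.00301 and 0.00719). The genes that fell were Ephx1, Ephx2, Sult1a1 and Aldh2, at log2 fold changes of -0.69, -0.86, -1.42 and -0.61 (adjusted p = 0.00788, 0.00849, 0.0146 and 0.0473). The calls of Sult1a1 and Aldh2 were lost under 1 and 6 of 15 alternatives. Without DT library 2 the number of these enzymes called was 7. Of 14 tested regulators of such genes, Maff, a small partner of NRF2, rose from 5.67 ± 1.21 to 15.8 ± 6.40 CPM (1.47, adjusted p = 0.00816), and Bach2, a repressor, fell from 22.3 ± 4.53 to 12.5 ± 2.09 CPM (-0.83, adjusted p = 0.0186), a call lost under 4 of 15 alternatives (0.0505 to 0.066). Thus 1 of the 14 regulators rose and 1 fell, against 17.2% and 11.9% of all genes. The median of this list was -0.18, and 4 genes were called without DT library 1 and 1 without DT library 2 or 3. Nfe2l2, which encodes NRF2, and its inhibitor Keap1 did not pass, at log2 fold changes of -0.19 and -0.31 (adjusted p = 0.251 and 0.232).

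**Figure D4:**
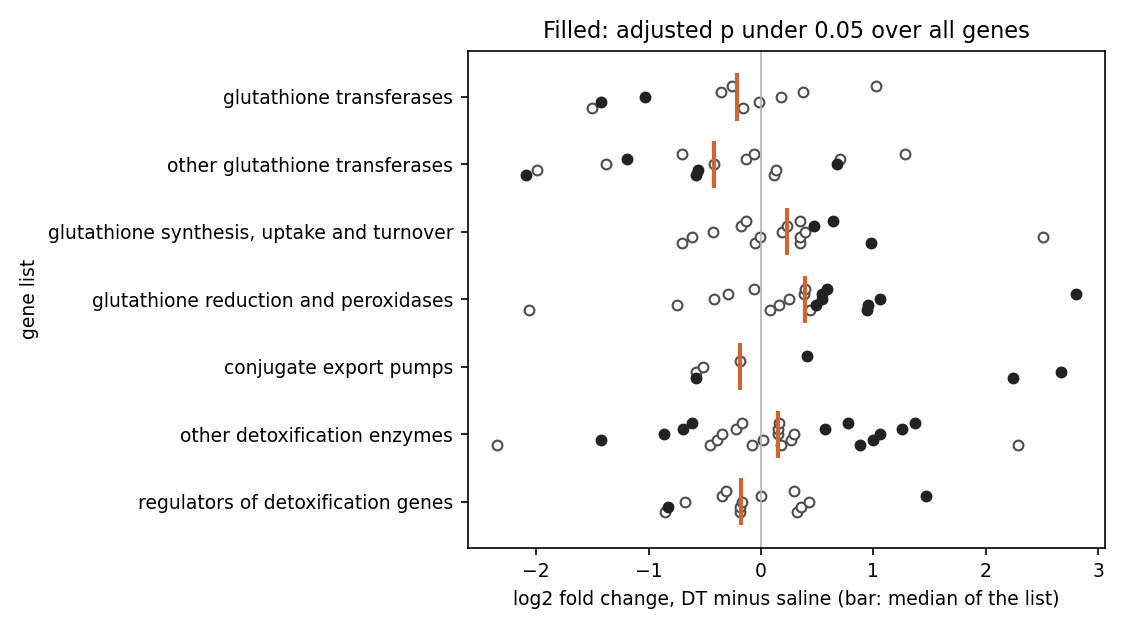
Log2 fold change (DT minus saline) of each tested gene in the 10 transferases and 6 related lists, with filled points where the adjusted p over all genes was under 0.05 and orange bars at the list medians. The transferases have 2 filled points, both left of 0, while the list of reduction and peroxidase genes has 8 filled points, all right of 0.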

How the data were processed

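RNA of 6 sorted samples was sequenced. Reads were aligned with GSNAP to GRCm38, per the submitters' processing notes. A deposited count gives the reads aligned uniquely to the model of a gene, and the deposited RPKM is adjusted by a library size factor, both per the file headers. The sources used here do not give the aligner version, annotation, strand setting or read length. RefSeq names (GRCm38.p6) matched 31049 of 36528 identifiers.

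The groups come from the treatment label. Libraries were numbered in record order, and equal numbers do not pair them. Counts were tested with edgeR 4.0.16 (R 4.3.3), after filterByExpr (minimum count 10, minimum total 15), with TMM scaling and the robust quasi-likelihood test, at a Benjamini-Hochberg adjusted p under 0.05 over the 15132 genes kept. Fold changes are log2, DT minus saline, and intervals cover 95%. The procedure was also run on simulated counts with 200 changed genes. Since 4395 genes were called in these data, that run is no check under conditions like these. Levels between genes are compared on RPKM. Alternatives used DESeq2 1.42.0, limma 3.58.1 (voom, or log2(RPKM + 1) with a pseudocount of 1), other scalings and filters, identifier blocks, and each library left out.

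The members and lists were chosen with earlier results of these data known. Named genes are the members, the relatives past the test, and up to 4 genes of each further list with the smallest p among those past the test. Lhx2, Sox9, Nfatc1, Krt14, Gsr, Gclc, Gclm, Nfe2l2, Keap1 and other genes outside this rule were chosen after their values were seen. Uniqueness was counted as the share of distinct 50-base stretches of GENCODE M21 transcripts found on neither strand of another gene's transcripts. No pair of libraries within a group had counts so close that it could be 1 library deposited again (chi-square divided by its degrees of freedom, 21.5 to 65.6).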

Additional observations from a re-analysis of the deposited data

How the results depend on the processing

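The falls of Gstm1 and Gstt1 kept their direction and their side of the threshold under all 15 alternatives listed in the methods, with log2 fold changes of -1.17 to -0.89 and -1.53 to -1.25, and within the 4 libraries of the larger series of sample identifiers, an alternative chosen after seeing the data (adjusted p = 0.0262 and 0.0202). The number of members called was 2 without any 1 library and 4 with limma on log2(RPKM + 1). Mgst3 passed with DESeq2 and with limma on RPKM (0.37 in both) and Mgst2 with limma on RPKM (-0.77); the cause was not tested. Gstm2 changed sign without saline library 2 (0.01) and without DT library 2 (0.10), in a range of -0.12 to 0.10. Leaving out each library gave 2581 to 4871 genes called over the whole table against 4395, with 2889 without saline library 2, 2621 without DT library 2 and 2581 without DT library 3, and the 4 libraries alone gave 1570; these settings have fewer samples. Scaling by library size only turned the split of called genes from 59.2% to 47.5% higher in DT. The lists moved, over libraries left out, between 2 and 5 called genes (other transferases), 0 and 3 (synthesis), 4 and 7 (reduction), 2 and 3 (pumps), 7 and 14 (other enzymes) and 1 and 4 (regulators). With limma on log2(RPKM + 1) 7 of the other transferases were called. The synthesis list had 5 called genes without the filter, with a mean count of at least 10, with DESeq2 and with limma-voom, and the regulators had 4 with DESeq2 and 1 with limma on RPKM. No replicate numbers are given in the labels. With consecutive sample identifiers as a replicate block 4592 genes and 2 members were called, and with the number series as a block 4117 and 2; deviations of libraries with consecutive identifiers correlated at 0.217, 0.0402 and 0.0548, so the identifiers are not shown to pair the libraries. Differences of Gstm1 to Gstm2 and to Gstm5 within libraries ranged from -1.05 to -0.98 and from -0.98 to -0.63 without 1 library. Read depth limits Gsta4 and Mgst2, with at most 52 reads in a library.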
